A study of Homo sapiens with 4 samples.

Results

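The 10 genes described here encode the core proteins that write, erase and read N6-methyladenosine (m6A) in RNA. They are METTL3, METTL14, WTAP and VIRMA (writers), ALKBH5 and FTO (erasers) and YTHDF1, YTHDF2, YTHDF3 and YTHDC1 (readers). They were chosen by name, and their peaks are those listed under the NCBI Gene ID of a member, with each position counted once. Of 9107 HNRNPC peaks 3 were theirs, and of 63507 PABPC4 peaks 79 were, each listed under a single gene ID. Binding was mapped by cross-linking and immunoprecipitation (CLIP) in MDA-MB-231, an established human triple-negative breast cancer line, irradiated with 400 mJ cm-2 of ultraviolet light at 254 nm. There were 2 samples for HNRNPC and 2 for PABPC4, with no treatment or altered gene given for any of them. Tags of both samples of a protein had been pooled before peak calling, which leaves no replicate spread, and no difference could be tested.

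m6A is a methyl group on adenosine, placed in the nucleus, mostly within GGACU-like sequences and often close to stop codons and in 3′ UTRs. METTL3 carries the catalytic site, METTL14 holds the RNA, and WTAP and VIRMA place the complex on its targets, while ALKBH5 and FTO remove the methyl group and YTH domain proteins bind it. HNRNPC binds U tracts in nuclear RNA and has been described as an indirect reader, because m6A opens nearby stems and frees such tracts. PABPC4 is a poly(A)-binding protein that moves between nucleus and cytoplasm. Its PAPERCLIP peaks can fall at mRNA 3′ ends and at other A-rich sites. Whether binding or priming placed peaks at A-rich sites was not tested. The question for these genes was therefore which of their own transcripts HNRNPC and PABPC4 touched, and where. m6A itself was not measured.

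Peak height counts the unique tags over the top of a peak, both samples together. It was not scaled to depth, and summed heights (147196 tags for HNRNPC and 4019739 for PABPC4) are not library sizes. mRNA amount was not measured here, so more mRNA and more binding per mRNA cannot be told apart in a height. Intervals cover counting error only. As a check of the cell line, PABPC4 3′ UTR peaks were found for 5 of 6 mesenchymal markers, the tallest of each from 331 tags (CD44) to 10197 (VIM). The remaining one, LGALS1, had a single peak of 2991 tags outside the 3′ UTR. Of 6 luminal or epithelial markers, ESR1 and PGR had no 3′ UTR peak, whereas CDH1, EPCAM and GATA3 had tallest peaks of 56, 88 and 108 tags and KRT19 one of 892.

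HNRNPC peaks were found in 3 of the 10 genes, METTL14, ALKBH5 and YTHDF1, with 1 peak in each. Among 20037 protein-coding genes, 19.0% had an HNRNPC peak, and among the 9778 with a PABPC4 3′ UTR peak, as 9 members had, the share was 34.4%. The count of 3 is therefore close to the background. The intron peaks, of 55 tags in YTHDF1 and 9 tags in ALKBH5, are shown 5′ to 3′ on the gene's strand. The ALKBH5 interval (4.12 to 17.1) overlapped that of the METTL14 3′ UTR peak (2.20 to 13.1). Capitals mark runs of 5 or more U, GGACU and GUGUCA. The intron peaks of YTHDF1 (chr20:63208712-63208916, minus strand, hg38) and ALKBH5 (chr17:18197443-18197623, plus strand) are given with 50 nt before and 25 nt after the peak.
YTHDF1 intron 3: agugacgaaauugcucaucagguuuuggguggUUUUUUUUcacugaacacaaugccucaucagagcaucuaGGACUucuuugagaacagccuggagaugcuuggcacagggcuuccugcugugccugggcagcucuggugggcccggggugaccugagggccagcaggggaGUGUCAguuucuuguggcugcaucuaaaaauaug
ALKBH5 intron 2: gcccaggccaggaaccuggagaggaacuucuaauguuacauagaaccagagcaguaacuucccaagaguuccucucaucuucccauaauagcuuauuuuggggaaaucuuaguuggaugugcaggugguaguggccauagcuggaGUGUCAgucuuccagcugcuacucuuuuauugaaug

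The HNRNPC peak in YTHDF1, which encodes a cytoplasmic m6A reader linked to translation, was 55 tags high (exact Poisson 95% interval 41.4 to 71.6), against 0.82 expected by chance in the authors' background. It was taller than 97.0% of HNRNPC peaks. Its position in intron 3 places it in pre-mRNA, 12370 nt before the nearest annotated transcript end. A run of 8 U began 18 nt before the peak, and GGACU, the preferred m6A sequence, began at nt 22 of the peak. Of all HNRNPC peaks, 39.7% had UUUUU in the peak or in the 50 nt before it. GGACU lay inside 12.4% and within 100 nt of 31.0%. With GGACU inside, 5.10% had both motifs, so the pairing is uncommon but not particular to YTHDF1. Whether the motifs occur together beyond their separate shares was not tested. Whether this GGACU is methylated was not measured.

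The other HNRNPC peaks were low. The ALKBH5 peak, in intron 2, was 9 tags high (4.12 to 17.1) and had no U run longer than 4 nt in the peak or the 50 nt before it and no GGACU within 100 nt. GAACU, another form of the m6A consensus, did lie in the 50 nt before that peak. The METTL14 peak was 6 tags high (2.20 to 13.1), at the low end of the list, where 3.46% of peaks were lower. It was the only HNRNPC peak of the 10 genes in a 3′ UTR, a class that held 4.97% of all HNRNPC peaks and that 1.98% of protein-coding genes had. It lay on an antisense Alu match, as 32.8% of HNRNPC peaks did. Alu elements are short repeats whose antisense copies carry U tracts, although the longest U run here was 4 nt. GUGUCA lay within 25 nt of the 3′ end of all 3 peaks, as it did in 40.9% of all HNRNPC peaks and 0.858% of PABPC4 peaks. It began 11 nt before the end in ALKBH5 and 9 nt before it in YTHDF1. Why it recurs at HNRNPC peak ends was not tested. None of the 3 HNRNPC peaks shared a base with a PABPC4 peak of its strand, and 0.944% of all HNRNPC peaks did. The nearest was 559 nt away in METTL14, 5447 nt in ALKBH5 and 12289 nt in YTHDF1.

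PABPC4 peaks were found in 9 of the 10 genes, and the same 9 had at least 1 in a 3′ UTR. The background was 59.2% of protein-coding genes with a PABPC4 peak and 48.8% with one in a 3′ UTR. YTHDC1, the nuclear reader that acts in splicing and export, had no peak in either list. A search by its annotated span (chr4:68310387-68350090, hg38, minus strand) in place of its gene ID also found none. The nearest PABPC4 peak on its strand lay 613334 nt away and was listed under UBA6.

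**Figure D1:**
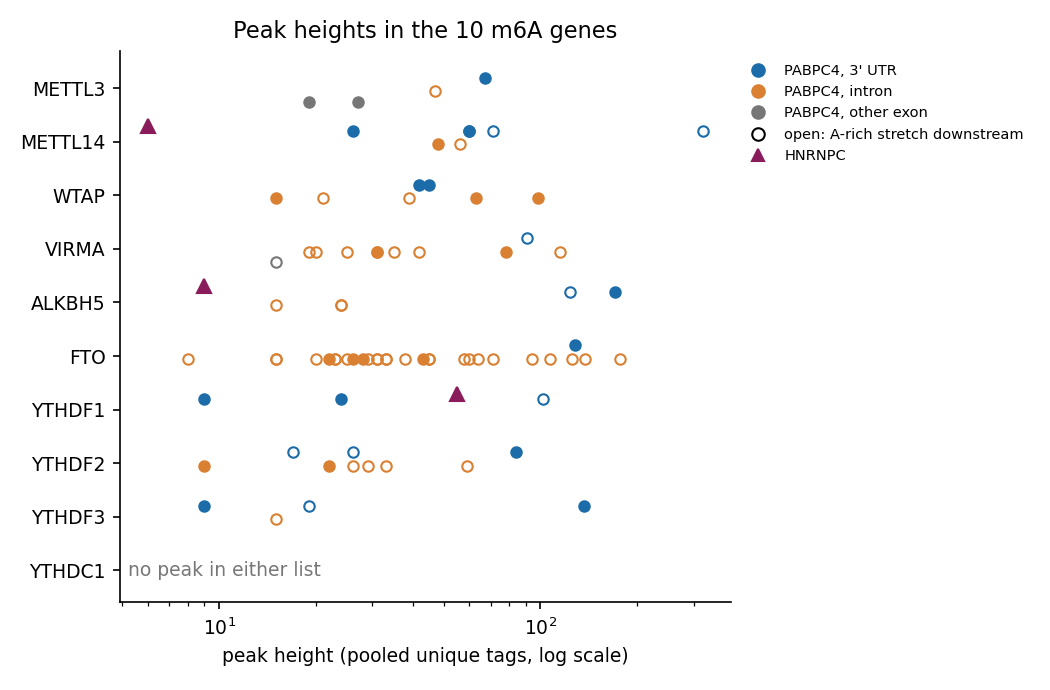
Height of every HNRNPC and PABPC4 peak in the 10 genes, in pooled unique tags on a log axis. Each symbol is 1 peak, coloured by transcript part, and open circles have an A-rich stretch within 50 nt downstream. The tallest peak is the METTL14 3′ UTR peak of 320 tags, and YTHDC1 has none.

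Of the 79 PABPC4 peaks, 55 were in introns (69.6%, Wilson 95% interval 58.8 to 78.7), 21 in 3′ UTRs (26.6%, 18.1 to 37.2), 2 in coding sequence and 1 in a non-coding exon. In the whole list 60.2% were in introns and 29.8% in 3′ UTRs. By height, 3′ UTRs held 39.2% of the summed member peak height of 4158 tags, against 46.1% of the summed height of all PABPC4 peaks. FTO alone gave 28 of the 55 intron peaks, and the intervals treat peaks as independent. Without FTO, 20 of the remaining 50 peaks (40%) were in 3′ UTRs, above the 29.8% of the list, and 27 were in introns. By height, 57.7% of the remaining 2603 tags was then in 3′ UTRs. The genes were spread widely. The share of summed height in the 3′ UTR was 8.23% for FTO, 18.1% for VIRMA, 26.9% for WTAP, 91.7% for YTHDF3 and 100% for YTHDF1. The median over 11865 protein-coding genes was 50.2% (quartiles 12.5 and 100%).

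**Figure D2:**
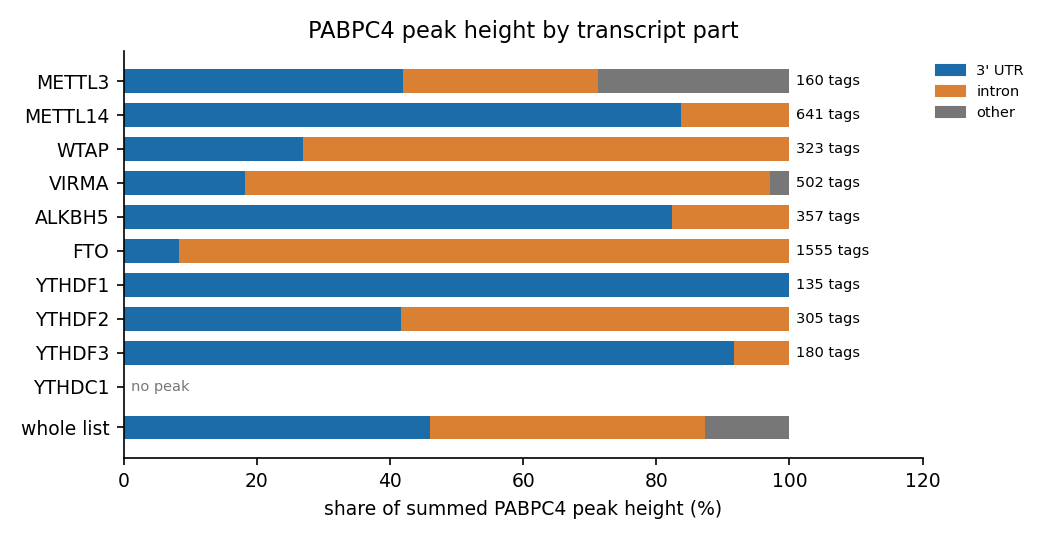
Share of each gene's summed PABPC4 peak height in the 3′ UTR, introns and other parts, in percent, with the gene's total in tags at the right and the whole list in the lowest bar. FTO, VIRMA and WTAP are mostly intronic, and YTHDF1 and YTHDF3 are mostly or wholly 3′ UTR.

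At 3′ ends, 7 members had a PABPC4 peak that ended within 25 nt of an annotated transcript end and was not followed by an A-rich stretch (a run of 6 A, or 10 nt with 7 A, in the next 50 nt). All 7 held a poly(A) signal, AAUAAA or AUUAAA, in the last 40 nt, and in the whole list 77.8% of 7218 such peaks did. Those genes were METTL3, METTL14, WTAP, ALKBH5, FTO, YTHDF2 and YTHDF3. The last 30 nt or fewer of 6 of these peaks are shown with the signal in capitals, because the signal marks where the mRNA is cleaved. They lie at chr14:21498146-21498174 (minus strand) for METTL3, chr4:118715399-118715428 for METTL14, chr6:159756286-159756309 for WTAP, chr17:18209924-18209953 for ALKBH5, chr16:54114436-54114465 for FTO and chr1:28769742-28769771 for YTHDF2, all on the plus strand of hg38 except METTL3.
METTL3: uucuuuauuuaAAUAAAcauuuguauugu
METTL14: guaccuuaauAAUAAAaagauuuuuaaugu
WTAP: aaccuaAAUAAAgauuuuuauugu
ALKBH5: cAAUAAAaaccaaaucuaauauauuuugaa
FTO: aaacauAUUAAAaggaugagauaagaaacc
YTHDF2: cuucucAAUAAAcgugagauccuguugagc

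Among the writers, METTL3, the catalytic subunit, had 1 3′ UTR peak, 67 tags high (51.9 to 85.1) and at the annotated end, 112 nt after the stop codon. That peak was its tallest, and the first AAUAAA base lay 18 nt before the peak's end. The other METTL3 peaks were a coding-sequence peak of 19 tags, a peak of 47 tags in intron 3 before a run of 19 A, and a peak of 27 tags in a non-coding exon within intron 1 of the reference transcript. The last (chr14:21507840-21507869, minus strand) was named after its values were seen. It had AUUAAA 19 nt before its end and no A-rich stretch downstream, and the nearest annotated METTL3 end was 189 nt further on.
METTL3 intron 1: gaaacauacaaAUUAAAccagaaugucacu

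METTL14, the RNA-binding partner of METTL3, had the tallest 3′ UTR peak of the 10 genes, with 320 tags (286 to 357). It ended 606 nt after the stop codon and was taller than 98.3% of PABPC4 peaks. No annotated end lay within 25 nt, no poly(A) signal lay in its last 40 nt, and it was followed by a run of 15 A encoded in the genome, shown in capitals in the 30 nt that start 12 nt after the peak (chr4:118710920-118710949). Whether these tags were primed in that run was not tested. The peak at the distal annotated end, 5126 nt after the stop codon, had AAUAAA and 60 tags (45.8 to 77.2). Between the stop codon and that end lay a peak of 71 tags at 300 nt, at an annotated end and before an A-rich stretch, and peaks of 60 tags at 1091 nt and 26 tags at 1145 nt with no annotated end close by. The HNRNPC peak, 4535 nt after the stop codon, lay between these and the distal end.
METTL14: uAAAAAAAAAAAAAAAguuuaucaucauaa

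WTAP, the subunit that brings the methyltransferase to nuclear speckles, had its tallest PABPC4 peak in intron 1, at 98 tags (79.6 to 119). This peak (chr6:159728311-159728358, plus strand) had neither an A-rich stretch downstream nor an Alu match nor a poly(A) signal, and is shown with the 50 nt after it, where the only run of 4 A is at its start. The 3′ UTR peaks were of 45 tags (32.8 to 60.2) and 42 tags (30.3 to 56.8), with overlapping intervals. The 42-tag peak was at the annotated end of the full-length transcript, 698 nt after the stop codon. The 45-tag peak lay 6261 nt before that stop codon, in intron 6 of the reference transcript and in the 3′ UTR of a shorter WTAP transcript whose annotated end was 65 nt further on.
WTAP intron 1: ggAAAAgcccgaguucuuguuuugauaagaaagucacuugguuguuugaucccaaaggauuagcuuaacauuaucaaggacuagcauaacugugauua

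VIRMA, the largest subunit and a scaffold linked to methylation in 3′ UTRs, had 11 PABPC4 peaks and 1 in its 3′ UTR. That peak was 91 tags high (73.3 to 112) and ended 149 nt after the stop codon, 36 nt before the nearest annotated end. AAUAAA began 13 nt after its end, and the A-rich call of the stretch was lost once the signal was masked. The tallest VIRMA peak was in intron 1, at 115 tags (94.9 to 138) and before an A-rich stretch. Of its 9 intron peaks 7 had such a stretch, and the other two, of 31 and 78 tags, lay on sense Alu matches.

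**Figure D3:**
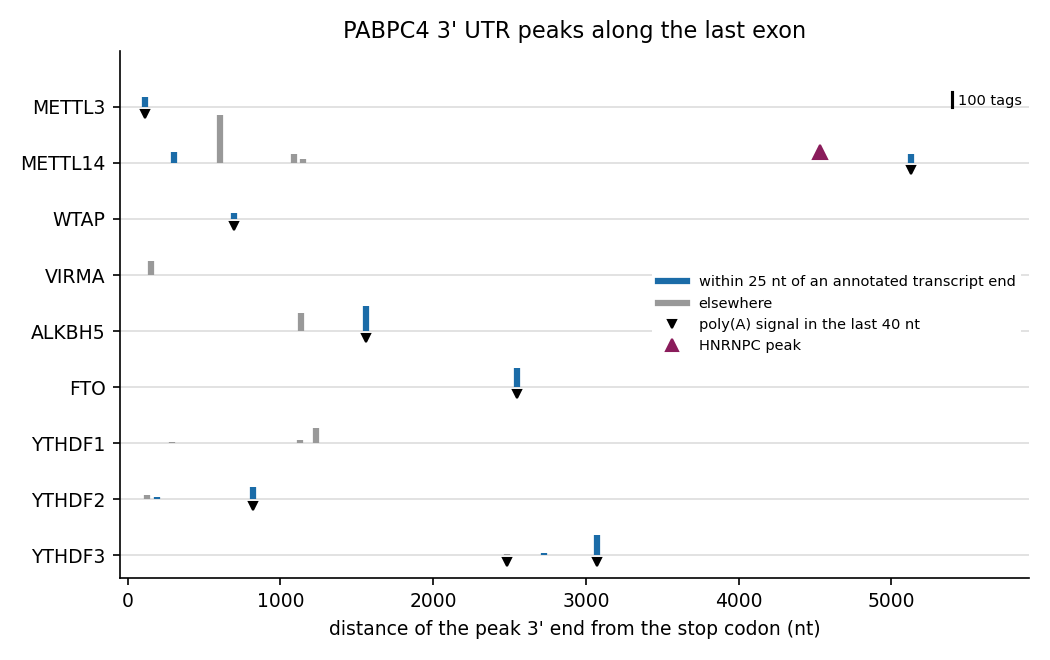
PABPC4 3′ UTR peaks of the 9 genes with such a peak, placed by the distance of the peak's 3′ end from the stop codon in nt. Bar height is the peak height, with a scale bar of 100 tags, blue bars end within 25 nt of an annotated transcript end, black triangles mark a poly(A) signal and the purple triangle is the METTL14 HNRNPC peak. The WTAP peak upstream of the reference stop codon is not drawn, and the tallest METTL14 peak is away from an annotated end.

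Among the erasers, ALKBH5, a nuclear demethylase, had 2 3′ UTR peaks. The taller, of 170 tags (145 to 198), was at the annotated end, 1557 nt after the stop codon, with AAUAAA. The other, of 124 tags (103 to 148), ended 1132 nt after the stop codon and was followed by the stretch shown (chr17:18209529-18209558, plus strand), with a run of 7 A. The intervals overlap slightly at their edges. All 3 ALKBH5 intron peaks, of 15 to 24 tags, lay on sense Alu matches before A-rich stretches.
ALKBH5: aggAAAAAAAgguaaagucuuugguagcuu

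FTO, the first demethylase described for m6A, had 29 PABPC4 peaks, the most of any member, of which 28 were in introns and 1 in the 3′ UTR. The 3′ UTR peak was 128 tags high (107 to 152), ended 2550 nt after the stop codon and lay 2 nt from an annotated end. It held AAUAAA 33 nt and AUUAAA 24 nt before its end. The tallest peak, of 177 tags (152 to 205), was in intron 8, the last intron, before a run of 23 A (chr16:54016232-54016341 with 50 nt after the peak, plus strand), and its interval met that of the 3′ UTR peak at its edge. Of the 28 intron peaks 24 were before an A-rich stretch and 10 lay on sense Alu matches. Their heights ran from 8 to 177 tags with a median of 33. Intron 8, of 177.7 kb, held 20 of them and 1092 of the 1427 tags of summed intron peak height.
FTO intron 8: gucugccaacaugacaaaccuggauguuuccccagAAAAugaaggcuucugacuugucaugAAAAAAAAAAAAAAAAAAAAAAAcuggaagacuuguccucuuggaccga

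**Figure D4:**
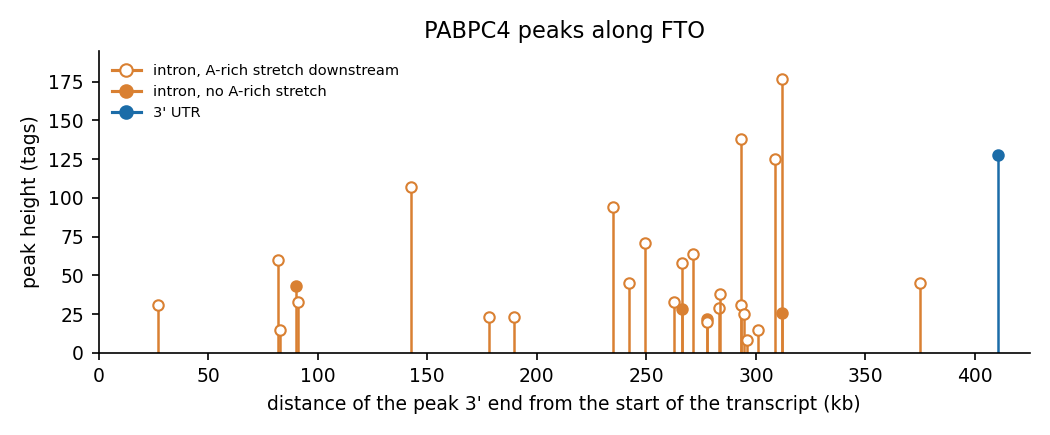
PABPC4 peaks along FTO, by the distance of the peak's 3′ end from the start of the transcript in kb, against height in tags. Open circles have an A-rich stretch downstream, and 20 of the 28 intron peaks lie in the last intron, before the single 3′ UTR peak of 128 tags.

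FTO is 418 kb long, and per length it was not unusual. It had 6.70 intron peaks per 100 kb, within the quartiles (2.48 and 9.44, median 5.14) of 7936 protein-coding genes with at least 1 intron peak. YTHDF2 with 18.1 (6 peaks), WTAP with 16.9 (5), VIRMA with 13.7 (9) and ALKBH5 with 11.5 (3) were above the upper quartile. METTL3 (7.57, 1 peak) and METTL14 (6.66, 2 peaks) were within the quartiles and YTHDF3 (2.26, 1 peak) was below them. With so few peaks a gene the counting error is large, and no interval was set on these values. Over all members, 43 of 55 intron peaks were before an A-rich stretch (78.2%, 65.6 to 87.0), against 71.2% of the list. A sense Alu match held 22 of 55 (40%, 28.1 to 53.2), against 53.1%. FTO alone gave 24 of these 43 peaks and 10 of these 22. None of the 55 had a poly(A) signal in its last 40 nt (interval 0 to 6.53%), and that interval held the list's 5.96%. Neither an A-rich stretch nor a sense Alu match was found for 6 of the 55.

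**Figure D5:**
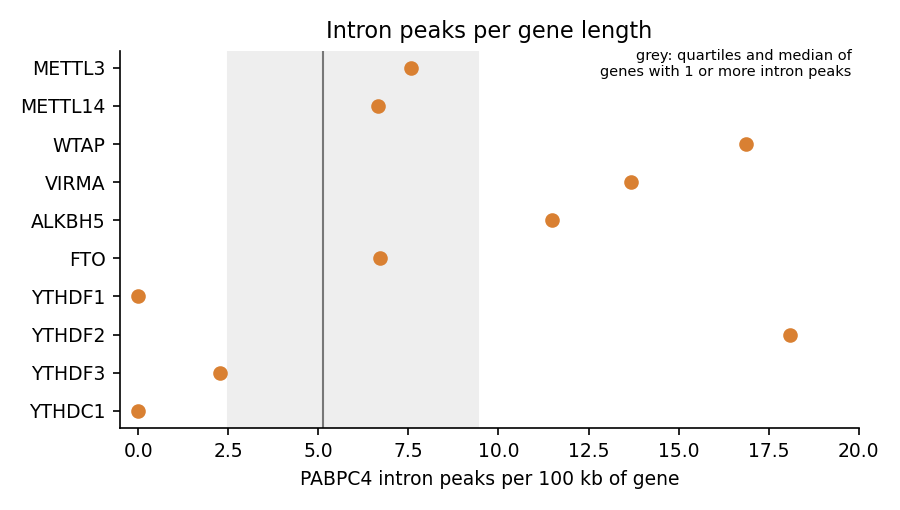
PABPC4 intron peaks per 100 kb of gene length for the 10 genes, with the quartiles (grey band) and median (line) of protein-coding genes with at least 1 intron peak. FTO, which has the most peaks, is inside the band, and YTHDF2, WTAP, VIRMA and ALKBH5 are above it.

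Among the readers, YTHDF2, which recruits the deadenylation machinery to methylated mRNA, had its tallest peak of 84 tags (67.0 to 104) at the annotated end, 819 nt after the stop codon. Its lower 3′ UTR peaks, of 26 tags at 123 nt and 17 tags at 193 nt, were both before A-rich stretches. The 26-tag peak ended 50 nt before an annotated end and the 17-tag peak 20 nt after one. All 6 YTHDF2 intron peaks, of 9 to 59 tags, were in intron 4. YTHDF1 had 3 PABPC4 peaks, all in the 3′ UTR. Its tallest, of 102 tags (83.2 to 124), ended 1233 nt after the stop codon and 46 nt before an annotated end, and AAUAAA began 24 nt after its end. That signal (in capitals, chr20:63195441-63195470, minus strand, starting 5 nt after the peak) is what made the stretch A-rich: with it masked the call was lost. A YTHDF1 peak of 24 tags lay at 1128 nt and one of 9 tags at 290 nt.
YTHDF1: cuaggagaauacaagccuuAAUAAAcaaua

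YTHDF3, the third cytoplasmic YTHDF reader, had its tallest peak of 137 tags (115 to 162) at the annotated end, 3075 nt after the stop codon, with AAUAAA 14 nt before the peak's end. A peak of 19 tags at 2727 nt was before a run of 9 A. It ended 12 nt before an annotated end, and AAUAAA began 1 nt after its own end. A peak of 9 tags at 2485 nt held AUUAAA. The only YTHDF3 intron peak had 15 tags. The 3 YTHDF genes thus each had most of their 3′ UTR height in the most distal peak: 75.6% for YTHDF1, 66.1% for YTHDF2 and 83.0% for YTHDF3. In METTL14 the tallest peak, which held 59.6% of the 3′ UTR height, was instead an upstream one.

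Ordered by their tallest PABPC4 3′ UTR peak, the genes were METTL14 (320 tags), ALKBH5 (170), YTHDF3 (137), FTO (128), YTHDF1 (102), VIRMA (91), YTHDF2 (84), METTL3 (67) and WTAP (45). The interval of METTL14 did not overlap that of ALKBH5, and every later neighbour in the order had an overlapping interval. Without peaks before A-rich stretches ALKBH5 came first, because the METTL14 value fell to the 60 tags shared by its peak at the distal end and the one at 1091 nt. VIRMA then had no 3′ UTR peak left, and YTHDF1 fell to 24 tags. The A-rich calls removed there were those lost with the signal masked. With all peaks kept, the median tallest height over the 9778 genes with a PABPC4 3′ UTR peak was 73 tags (quartiles 34 and 147). The members ran from above 32.7% of those genes for WTAP to above 91.0% for METTL14.

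Over the 21 3′ UTR peaks of the members, 10 (47.6%, 28.3 to 67.6) ended within 25 nt of an annotated end, against 48.2% of the 18915 in the list. A poly(A) signal was present in 8 (38.1%, 20.8 to 59.1), against 47.1%, and an A-rich stretch followed 8 (38.1%, 20.8 to 59.1), against 31.9%. The intervals of the members held the list's value in each case. Of the 8 A-rich calls, the VIRMA and YTHDF1 ones were lost with the signal masked, as were 17.1% of those in the list.

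A wider list of 21 m6A genes held other methyltransferases and complex subunits (9 genes) and other reported readers (12 genes). HNRNPC peaks were found in 7 of the 21 (8 when peaks were assigned by annotated span), against 19.0% of protein-coding genes and 34.4% of those with a PABPC4 3′ UTR peak. By gene ID these were 7 of the 12 readers and 0 of the 9 methyltransferases and subunits, a split that was not tested. Gene length was not taken into account. The 9 ran from 2.14 kb (TRMT112) to 98.3 kb (ZC3H13), and the 7 readers with a peak from 10.8 kb (HNRNPA2B1) to 182 kb (IGF2BP2). PABPC4 3′ UTR peaks were found in 20 of the 21 genes, against 48.8% of protein-coding genes. The genes with most HNRNPC peaks were HNRNPC itself (11 peaks, 190 tags), IGF2BP2 (8 peaks, 141 tags) and ELAVL1 (6 peaks, 83 tags), the latter both mRNA-stabilising proteins. Of these, all IGF2BP2 and ELAVL1 peaks and 10 of the HNRNPC ones were in introns. The genes with most PABPC4 peaks were IGF2BP2 (27, with 23.5% of summed height in the 3′ UTR), ELAVL1 (21, 53.3%) and IGF2BP3 (20, 5.09%). These counts were not scaled to gene length, and IGF2BP2 and IGF2BP3 are 182 and 160 kb long. They had 10.4 and 11.9 intron peaks per 100 kb, against 21.2 for ELAVL1 and 43.4 for RBMX. By RefSeq gene length the RBMX value was the highest of the wider list, but it rests on 5 intron peaks over 11.5 kb. The GENCODE span of RBMX (chrX:136848004-136880764) is longer, so this rank depends on the length used. PRRC2A, like YTHDC1, had no peak in either list.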

How the data were processed

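HNRNPC tags came from irCLIP per the labels (the name of the list says HITS-CLIP) and PABPC4 tags from PAPERCLIP. Per the study's methods, the authors collapsed molecular identifiers (UMI-tools), trimmed (cutadapt), aligned to hg38 (BWA 0.7.17), removed duplicates and called peaks by valley seeking. Those methods are given for HNRNPC, and whether a published set entered its list was not settled. The deposited signal per peak was its height in tags.

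Peaks were assigned by centre to GENCODE 44 (GRCh38) parts, 3′ UTR first, and distances used the MANE Select transcript. Alu matches were BLAST (2.17.0) hits to RN7SL1 (E-value at most 1e-05, 100 nt flanks). GGACU and GUGUCA were searched on the peak's strand. Intervals were Wilson for shares and exact Poisson for heights (95%). Functions were tested on simulated data. For each gene the text names its tallest peaks and each 3′ UTR peak of at least 10% of the tallest, and in the wider list the 3 genes with most peaks and those with none. Members and lists were chosen with earlier results of these data known. Alternatives were stricter p-values, taller peaks, gene spans, other windows and motifs, and omission of A-rich peaks. A withheld sequence is not reported here.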

Additional observations from a re-analysis of the deposited data

How the results depend on the processing

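Of 65 recalculations of 15 results, 50 stayed within the interval of the share or within 1.5 times the count. Not all of them could move. Counting every listed entry left the 3′ UTR share fixed, and the overlap count of 0 could not rise with fewer peaks. For an HNRNPC share of 33.3% the interval ran from 6.15 to 79.2%. The 66.7% found with 5 m6A consensus forms therefore counted as within it. With peaks at or above the list's median height, members kept 1 HNRNPC peak in 1 gene and 37 PABPC4 peaks, of which 37.8% of peaks and 46.7% of height were in 3′ UTRs, and the single HNRNPC peak gave 100% for the U run, 100% for GGACU and 0% for Alu. Without PABPC4 peaks before A-rich stretches, 27 peaks were left, with 48.1% of peaks and 61.9% of height in 3′ UTRs and a poly(A) signal in 61.5% of 3′ UTR peaks. With transcript ends within 100 nt, 71.4% of 3′ UTR peaks were at an end. UUUU gave 100% of member HNRNPC peaks with a U run and UUUUU inside the peak 0%. The HNRNPC shares rest on 3 peaks. No paired analysis was possible because each list pools both samples, and for the same reason no sample could be left out.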
